A study of Mus musculus with 2 samples.

Results

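Selectin-positive endothelial cells were taken from single-cell libraries of injured mouse kidney as the endothelial cells that carried messenger RNA of Selp (P-selectin) or Sele (E-selectin). They were selected on measured counts, namely the UMIs (unique molecular identifiers, counted RNA molecules) of the genes named below. Kept barcodes had 500 or more UMIs, 200 or more genes and no more than 50% mitochondrial UMIs. A barcode was endothelial with at least 3 UMIs over Cdh5, Pecam1, Egfl7 and Emcn and none of Ptprc, a leukocyte gene, or Pdgfrb, a pericyte gene. A member also had at least 1 UMI of Selp or Sele, fewer than 2 of the glomerular gene Ehd3, and none of Slc14a1, Gkn3, Stmn2 and Col8a1. This gave 130 members among 1412 endothelial cells and 19478 kept cells of both libraries. Of the members, 32 came from 523 endothelial cells of the control library and 98 from 889 of the haplodeficient library. The genes named in the rule are therefore high or absent in the members by choice, and no value of theirs is a finding.

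The series concerns the part of PHD3, an oxygen-dependent prolyl hydroxylase encoded by Egln3, in kidney endothelium after ischaemic injury. Kidneys were collected on day 14 after clamping of 1 renal artery, and both groups received 4 tamoxifen injections after the injury. The control group was Cre-, and the haplodeficient group was Cdh5-CreERT2; Phd3f/+, in which the promoter of the endothelial cadherin gene Cdh5 drives a tamoxifen-activated recombinase and 1 Phd3 allele is floxed. The labels state neither whether control mice carried the floxed allele nor how many animals went into a library. With 1 library per group there was no replicate check and no test, and animal, preparation and genotype cannot be told apart. Values in parentheses after a level or a share are exact 95% intervals for counting error only.

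P-selectin and E-selectin are lectins on the luminal side of activated endothelium that slow leukocytes into rolling, the step before integrin-mediated arrest on ICAM-1 and VCAM-1. P-selectin is stored in Weibel-Palade bodies, granules held together by von Willebrand factor, while E-selectin is made after stimulation by cytokines through NF-kappaB and AP-1 factors. Both are best known from postcapillary venules, whose cells also carry the chemokine-binding receptor Ackr1 and the venous transcription factor Nr2f2.

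The promoters of Sele, Selp and Icam1 are shown because cytokine-responsive elements lie upstream of this gene group. Each is the 250 bases before the RefSeq start (build GRCm38.p6, plus strand, 5′ to 3′), and capitals mark matches to a motif searched on both strands. Sele lies at chr1:164048234-164057677 and its window at chr1:164047984-164048233. Selp lies at chr1:164115264-164150026 and its window at chr1:164115014-164115263. The Icam1 window is chr9:21015690-21015939.
Sele: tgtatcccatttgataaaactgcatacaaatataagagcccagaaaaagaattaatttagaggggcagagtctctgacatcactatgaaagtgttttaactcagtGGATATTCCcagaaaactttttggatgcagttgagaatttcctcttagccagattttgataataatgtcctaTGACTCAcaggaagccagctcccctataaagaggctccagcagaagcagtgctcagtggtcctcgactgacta
Selp: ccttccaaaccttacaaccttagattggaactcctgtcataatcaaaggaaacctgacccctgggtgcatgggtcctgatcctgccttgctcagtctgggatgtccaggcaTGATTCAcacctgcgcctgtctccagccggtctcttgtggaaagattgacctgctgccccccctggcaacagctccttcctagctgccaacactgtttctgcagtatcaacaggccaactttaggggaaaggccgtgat
Icam1: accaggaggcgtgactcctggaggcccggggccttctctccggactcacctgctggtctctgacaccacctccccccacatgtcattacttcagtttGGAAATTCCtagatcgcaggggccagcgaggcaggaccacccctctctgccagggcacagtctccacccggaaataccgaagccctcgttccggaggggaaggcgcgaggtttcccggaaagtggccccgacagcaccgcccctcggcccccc
The capitals in Sele mark GGATATTCC, a match to GGANNNTCC, a relaxed form of the NF-kappaB motif, that begins 145 bases before the start, and TGACTCA, a match to the AP-1 motif TGANTCA that begins 73 bases before it. In Selp they mark TGATTCA, an AP-1 match 139 bases before the start. In Icam1 they mark GGAAATTCC, a match to the relaxed NF-kappaB motif 153 bases before the start. None of the 3 windows held the stricter NF-kappaB motif of 3 G, 2 free bases, 3 T and 2 C. Among all 32851 promoter windows of this length, the strict motif was found in 1.41%, GGANNNTCC in 7.27% and TGANTCA in 6.75%. GGANNNTCC and TGANTCA were searched after the strict motif had given no match, so the matches describe these letters only.

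The deposited matrices held 134190236 UMIs (control) and 114668145 UMIs (haplodeficient), and kept cells had medians of 9160 and 5861.5 UMIs. Members had medians of 6525.5 and 5456.5 UMIs, against 6509 and 3710.5 in the selectin-negative cells, which met the same gates with no Selp or Sele UMI (271 and 470 cells). The libraries shared 28 kept barcodes, none of them endothelial. RNA of tubule cells was present in some endothelial-gated barcodes of both libraries. Cells with at least 3 UMIs over the epithelial genes Krt8, Krt18, Krt19, Cdh1, Epcam, Cdh16 and Pax8, called epithelial-bearing here, made up 7 of 32 control and 18 of 98 haplodeficient members, yet carried 66.8% and 55.5% of the members' UMIs. Among selectin-negative cells they were 124 of 271 and 97 of 470, with 85.3% and 63.4% of the UMIs. Scrublet scores placed 4 control and 13 haplodeficient members among likely doublets. Doublets were kept in the main values, and summed levels are therefore also given without epithelial-bearing cells, a choice made after the data were seen. The estimated free-RNA share of all members was 36.8% (control) and 5.52% (haplodeficient), against 51.2% and 59.2% in selectin-negative cells. This estimate was read from tubule markers, so tubule RNA of any source, doublets included, enters it. Without epithelial-bearing cells the estimate was 3.44% and 1.06% in members and 5.93% and 1.65% in selectin-negative cells.

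**Figure D1:**
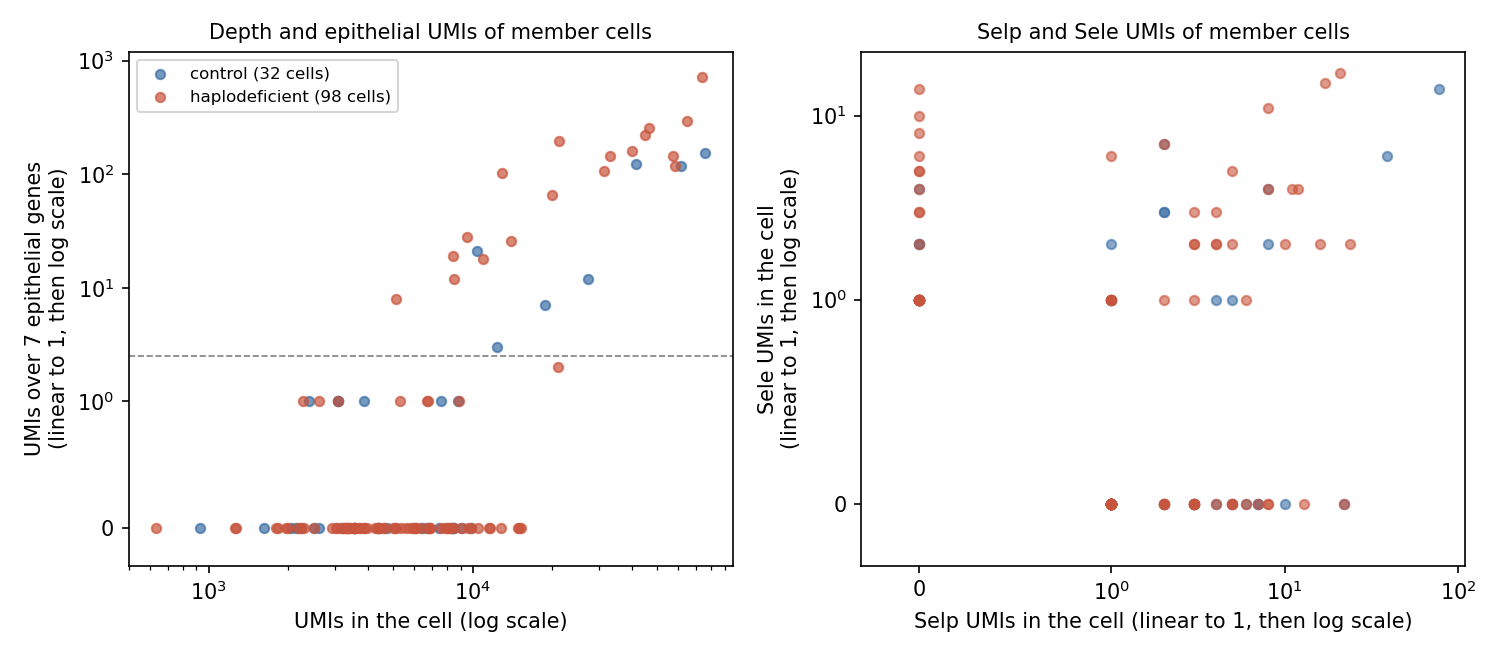
Each point is a selectin-positive cell of the control (blue, 32 cells) or haplodeficient (red, 98 cells) library. Left, UMIs in the cell (log axis) against UMIs over 7 epithelial genes (linear to 1, then log), with a dashed line below 3 UMIs. The 7 control and 18 haplodeficient cells above the line include the deepest cells. Right, Selp against Sele UMIs in the same cells on axes that are linear to 1 and then log. 16 control and 45 haplodeficient cells lie at 0 Sele, and 5 and 26 lie at 0 Selp.

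Markers of other cells were compared between members and selectin-negative cells. All 12 endothelial markers were found in the members of both libraries, at a summed 3739 CPM (control) and 4516 CPM (haplodeficient). CPM are the UMIs of a gene or list scaled to the summed UMIs of the cells. Platelet markers, relevant because platelets also carry P-selectin, summed to 16.1 CPM and 27.7 CPM in members and to 20.8 CPM and 23.7 CPM in selectin-negative cells, with 6 and 3 of the 8 genes at 0 in members. Leukocyte markers summed to 40.4 CPM and 169 CPM in members against 77.5 CPM and 149 CPM. Of these 12 genes 7 (control) and 10 (haplodeficient) had UMIs in members, and Cd3e and Cd3g were at 0 in both libraries. A leukocyte UMI was found in 7 control and 42 haplodeficient members, and 3 or more such UMIs in 3 and 12. Lymphatic markers summed to 194 CPM (152 to 244) and 113 CPM (93.0 to 135) against 74.3 CPM (65.8 to 83.5) and 87.1 CPM (78.2 to 96.6). Of the 6 genes 4 (control) and 5 (haplodeficient) had UMIs in members, in 21 and 44 cells. Lyve1 was at 0 in members of both libraries and Mmrn1 in those of the control, while the other genes of the list had UMIs. Mural and fibroblast markers summed to 301 CPM and 181 CPM against 66.8 CPM and 180 CPM, and the 112 such UMIs of control members lay in 4 cells. Results without the cells that held a platelet, leukocyte or mural UMI are given in the closing section on processing. The part of the lymphatic markers was not tested.

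Egln3, the targeted gene, was sparse. Members held 10 Egln3 UMIs in 8 control cells, or 26.9 CPM (12.9 to 49.5), and 14 UMIs in 12 haplodeficient cells, or 13.8 CPM (7.57 to 23.2). Without epithelial-bearing cells the levels were 72.9 CPM (33.3 to 138) and 24.4 CPM (12.2 to 43.7). The ratio of haplodeficient to control members was 0.514 (exact 95% interval 0.212 to 1.29) over all members and 0.335 (0.126 to 0.915) without those cells, from 9 control and 11 haplodeficient UMIs. Counting error thus left the direction undecided over all members. Without epithelial-bearing cells, a choice made after the data were seen, the interval of the ratio (0.126 to 0.915) held only lower haplodeficient levels, on few molecules. The intervals of the levels themselves overlapped there (33.3 to 138 against 12.2 to 43.7). Egln3 therefore did not pass the size rule set out below for other genes, and no direction is called for it. Selectin-negative cells without epithelial RNA held 45.3 CPM and 29.0 CPM. The counts come from transcript 3′ ends, and it is not stated whether transcripts of a recombined allele are still counted, so Egln3 does not check the genotype here.

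Selp and Sele were each carried by part of the members. In the control library 16 members carried Selp only, 5 Sele only and 11 both. In the haplodeficient library the numbers were 45, 26 and 27. Summed over members, Selp stood at 606 CPM (control) and 306 CPM (haplodeficient), and Sele at 145 CPM and 177 CPM. A single control cell held 78 Selp and 14 Sele UMIs, and it supplied 34.7% of all Selp UMIs of the control members. At the lower threshold, 8 control and 42 haplodeficient members carried exactly 1 selectin UMI. At the Ehd3 threshold, 4 and 27 members held 1 Ehd3 UMI, while 10 and 22 cells with selectin UMIs were left out for 2 or more Ehd3 UMIs.

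The gates also split the endothelial cells by their selectin UMIs. A Selp or Sele UMI was found in 10 of 40 control (25%) and 22 of 99 haplodeficient (22.2%) Ehd3-positive cells, which are glomerular by that gene. The share was 7.61% and 6.02% in cells with a UMI of the arterial-gate genes Gkn3, Stmn2 or Col8a1. It was 2 of 89 haplodeficient (2.25%) and 0 of 88 control Slc14a1-positive cells, cells of the descending vasa recta by that urea-transporter gene, and the control count allows up to 4.11%. Proximal tubule cells, which should lack both genes, had such a UMI in 3 of 3267 control cells (0.0918%, median 11962 UMIs) and 1 of 492 haplodeficient cells (0.203%, median 9664.5 UMIs). The shares outside the Slc14a1 gate lay above these values, while the interval of the haplodeficient Slc14a1-positive share (0.273% to 7.88%) overlapped that of the tubule cells. Thinned to 1000 UMIs, Ehd3-positive cells kept a selectin UMI in 7.5% and 7.07%.

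**Figure D2:**
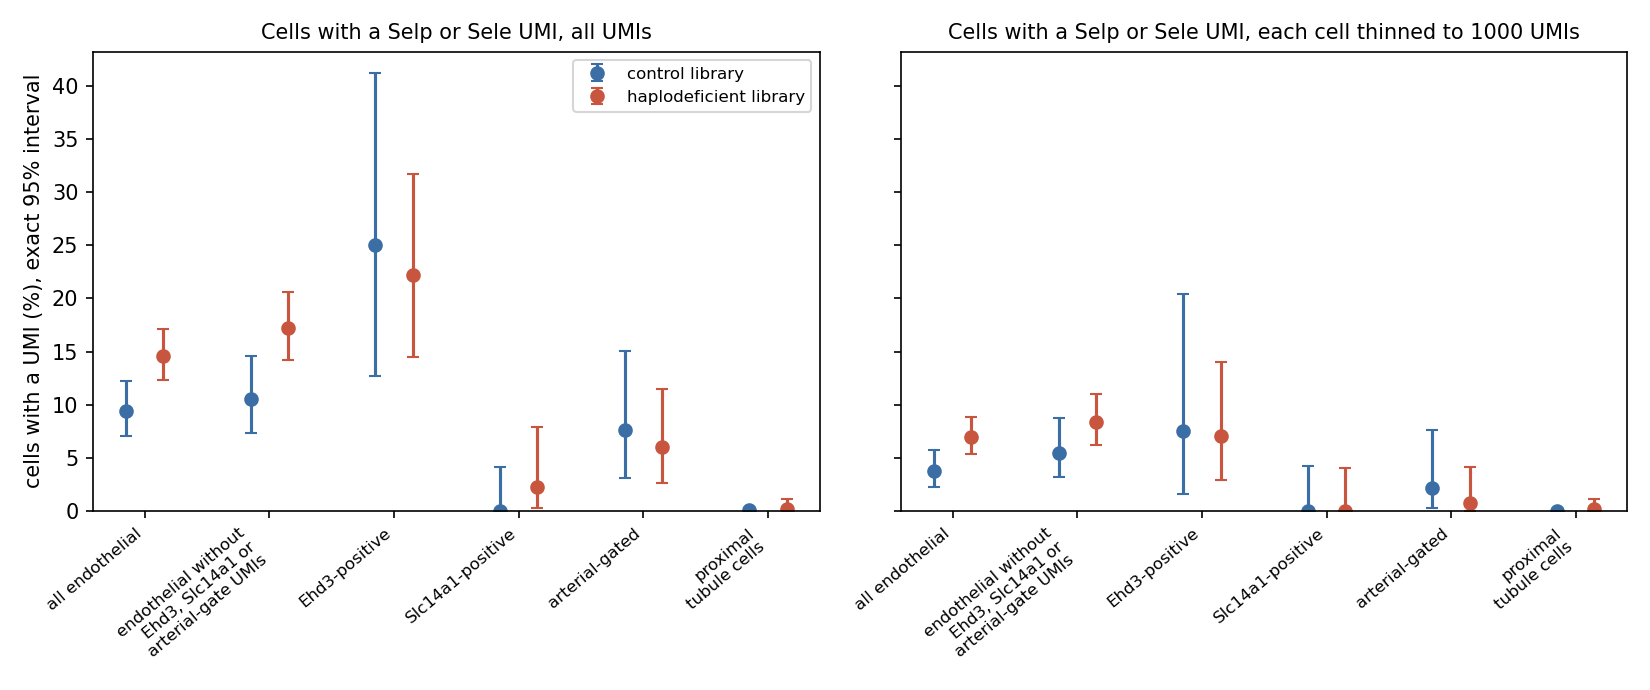
Percent of cells with at least 1 Selp or Sele UMI, by endothelial group and in proximal tubule cells, for the control (blue) and haplodeficient (red) library, with exact 95% intervals for counting error. Left, all UMIs. Right, each cell thinned to 1000 UMIs. Ehd3-positive cells (25% and 22.2%) and the cells outside the other gates (10.6% and 17.3%) stand above Slc14a1-positive cells (0% and 2.25%) before thinning.

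The members' share of endothelial cells was 6.12% (4.22% to 8.53%) in the control library and 11.02% (9.04% to 13.3%) in the haplodeficient library, a difference of 4.91 percentage points (1.85 to 7.74). Among cells outside the Ehd3, Slc14a1 and arterial gates the shares were 10.6% and 17.3%, a difference of 6.69 points (1.79 to 11.2). With 2 or more selectin UMIs required, the haplodeficient share of endothelial cells was 6.30% and the difference 1.71 points. After thinning of each cell to 1000 UMIs, a selectin UMI was left in 3.73% of control and 6.99% of haplodeficient endothelial cells, a difference of 3.26 points (0.741 to 5.57). These shares include the Ehd3, Slc14a1 and arterial-gated cells, and were 9.37% and 14.6% before thinning, so they are not the members' shares. In that remainder a selectin UMI was left in 5.48% of control and 8.33% of haplodeficient cells, a difference of 2.85 points (-0.964 to 6.19). There 11 and 16 cells were too shallow to enter. The share of epithelial-bearing cells moved with this result. Without them members were 25 of 172 control (14.5%) and 80 of 453 haplodeficient cells (17.7%) of the remainder, a difference of 3.13 points (-3.73 to 8.995). The interval of the members' difference thus lay above 0 with all UMIs and all cells. So did that of any selectin UMI after thinning of all endothelial cells. In the remainder the interval reached below 0 after thinning or without epithelial-bearing cells. The 1.71 points with 2 or more selectin UMIs lay below the interval of 1.85 to 7.74, and no interval of its own is given.

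Clustering of all endothelial cells without the genes of the rule put most members in the same cluster. Its leading genes were Rgcc, Plvap, Igf1, Aplnr, Tll1, Il33 and Sema3d, among them the gene of the fenestral diaphragm protein PLVAP, and it is called the Plvap-led cluster below. It held 100 of the 130 members (76.9%) but 28.8% of endothelial cells. In the control library 25 of 32 members lay there (78.1%), and in the haplodeficient library 75 of 98 (76.5%). All 25 control and 75 of the 80 haplodeficient members without epithelial RNA were in it. A further 16 members lay in a cluster led by the thick-limb genes Slc12a1 and Umod, of whose 132 cells 129 were epithelial-bearing. The Ptn-led cluster of 247 cells and the Mgp-led cluster of 118 cells held no member.

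The Plvap-led cluster took 18.9% of control and 34.6% of haplodeficient endothelial cells, and 29.0% and 42.0% of those without epithelial RNA, a difference of 13.0 points (6.80 to 18.8). Shares inside it were taken without epithelial-bearing cells and without the cells of the Ehd3, Slc14a1 and arterial gates. Members were 25 of 91 control cells (27.5%, 18.6% to 37.8%) and 75 of 275 haplodeficient cells (27.3%, 22.1% to 32.9%). The difference was -0.200 points (-11.3 to 9.63). In both libraries, then, about the same share of this cluster carried a selectin UMI, while the cluster took a larger part of the haplodeficient than of the control endothelial cells. The median member of the cluster had 3875 (control) and 4392 UMIs (haplodeficient), and the median selectin-negative cell 2493.5 and 3025.5, so detection of a selectin moved with depth.

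Levels across endothelial groups, all without epithelial-bearing cells, placed the members apart from each of the other groups in adhesion genes the rule did not use. Vcam1, a marker of the label, stood at 2203 CPM (1949 to 2481) in control and 971 CPM (882 to 1066) in haplodeficient members. Its highest level in any other group was 304 CPM in the control and 416 CPM in the haplodeficient arterial-gated cells, and selectin-negative cells had 198 CPM and 192 CPM. Icam1, whose product binds leukocyte integrins in firm adhesion, stood at 672 CPM (535 to 833) and 571 CPM (503 to 645) in members. The other groups lay between 149 CPM and 223 CPM for Icam1 in both libraries. For Vcam1 and Icam1 the members' intervals lay above those of the other 4 groups in each library.

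Venous and capillary genes gave a mixed picture. Nr2f2, the venous transcription factor, was at 502 CPM (385 to 644) and 364 CPM (311 to 425) in members, against 158 CPM and 154 CPM in selectin-negative and 69.1 CPM and 30.7 CPM in arterial-gated cells. Plvap was at 2470 CPM and 2357 CPM in members, 901 CPM and 1322 CPM in selectin-negative cells, and between 108 CPM and 790.5 CPM in the other groups. Igf1, a growth factor gene, was at 786 CPM and 424 CPM in members and at most 155 CPM in the other groups. Vwf, whose product builds Weibel-Palade bodies, did not follow Selp. It stood at 105 CPM (56.1 to 180) and 31.1 CPM (17.0 to 52.2) in members but at 235 CPM and 275 CPM in Slc14a1-positive cells. Ackr1, the receptor typical of postcapillary venules, was found as 1 UMI in the members of each library and in no other endothelial group of these cells. Of the genes that define the label, Vcam1 was thus high in the members, while the venule marker Ackr1 was close to absent and Vwf was higher in other vessels, so the cells are called selectin-positive here.

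**Figure D3:**
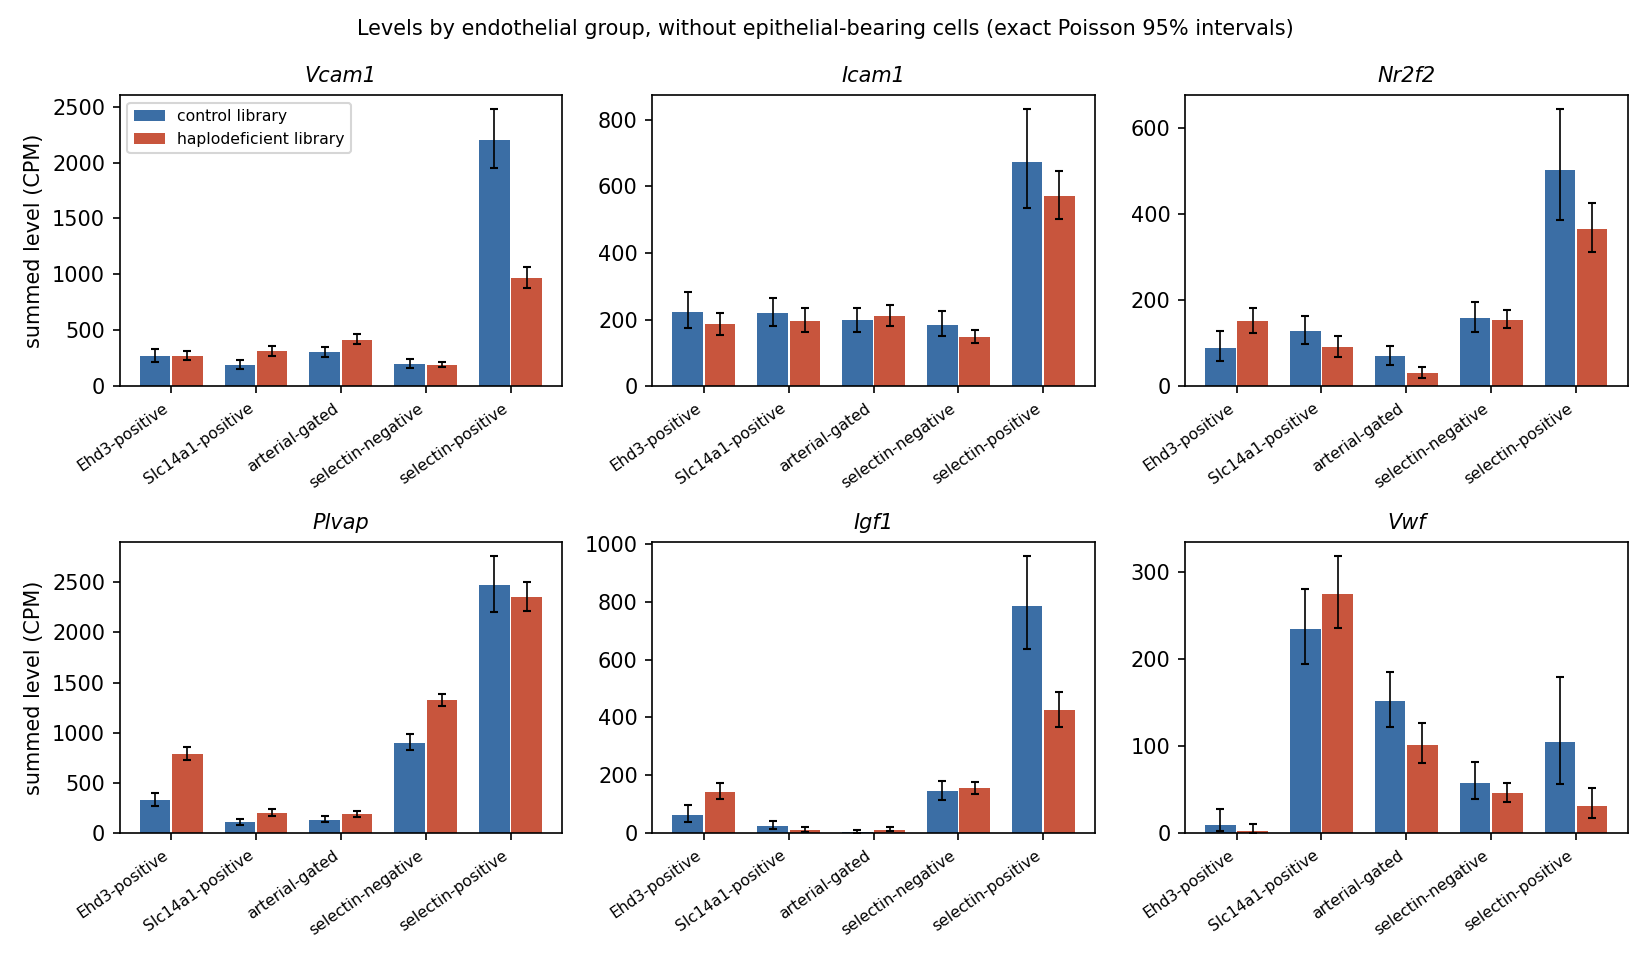
Summed levels in CPM (linear axis from 0) of Vcam1, Icam1, Nr2f2, Plvap, Igf1 and Vwf in 5 endothelial groups of the control (blue) and haplodeficient (red) library, without epithelial-bearing cells. Error bars are exact Poisson 95% intervals for counting error. Selectin-positive cells have the highest bar in each panel except that of Vwf, where Slc14a1-positive cells are highest at 235 CPM and 275 CPM.

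Genes low in the members mark other vessels. Sox17, an arterial transcription factor, was at 64.8 CPM (28.0 to 128) in control and 153 CPM (119 to 194) in haplodeficient members, against 561 CPM and 602 CPM in selectin-negative and 648 CPM and 774 CPM in arterial-gated cells. Aqp1, the water channel gene of the descending vasa recta and proximal tubule, was at 24.3 CPM (3 UMIs) and 2.22 CPM (1 UMI) in members, 713 CPM and 436 CPM in selectin-negative and 4537 CPM and 2814 CPM in Slc14a1-positive cells. The selectin-negative cells thus still carried arterial and vasa recta RNA although they passed the gates.

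Members were then compared with selectin-negative cells gene by gene. Genes whose mean level reached 50 CPM and whose UMIs in both sums together reached 30 were eligible. A gene passed the size rule with an absolute log2 ratio of at least 1, after adding 5 CPM to each level, and intervals that did not overlap. In the control library 216 of 3959 eligible genes were higher in members (5.46%) and 124 lower (3.13%). In the haplodeficient library 48 of 3904 were higher (1.23%) and 44 lower (1.13%). In both libraries 33 of 3446 genes passed as higher (0.958%) and 14 as lower (0.406%). Without epithelial-bearing cells the shares called were 5.78% higher and 3.18% lower in the control and 1.89% higher and 1.37% lower in the haplodeficient library. In both libraries 40 of 3245 were higher (1.23%) and 35 lower (1.08%), of which 19 and 5 were also among the 33 and 14. Because the selectins chose the members, these counts describe the chosen cells.

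The 12 genes highest in members of both libraries, over all members, were Bgn, Sema3d, Flrt2, Cxcl10, Vcam1, Igf1, Pdzd2, Edil3, Iigp1, Nrgn, Sncaip and Inpp4b. Bgn encodes the matrix proteoglycan biglycan, and it stood at 121 CPM (88.4 to 162) against 8.55 CPM in the control and at 92.9 CPM (75.1 to 114) against 21.5 CPM in the haplodeficient library. Cxcl10, an interferon-induced chemokine gene, was at 164 CPM against 49.4 CPM and at 377 CPM against 87.3 CPM. Iigp1, an interferon-inducible GTPase gene, was at 1378 CPM against 247 CPM and at 1179 CPM against 437 CPM. Vcam1 was at 770 CPM against 162 CPM (log2 ratio 2.21) and at 581 CPM against 184 CPM (1.63). The 8 lowest were S100g, Aqp1, Cldn5, Slc8a1, Frmpd4, Sox17, Phactr1 and Kitl. S100g, a calcium-binding protein gene of the distal tubule, was at 64.6 CPM against 529 CPM and at 46.5 CPM against 357 CPM. Expected free RNA alone equalled 69.8% of the S100g UMIs of control members, and S100g, Aqp1, Cldn5, Slc8a1, Frmpd4 and Phactr1 had at least 25% of their member UMIs in a single cell in each library. Within the Plvap-led cluster S100g, with 5 and 18 member UMIs, was at 40.5 CPM against 14.9 CPM and 42.7 CPM against 29.4 CPM.

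Restriction to the Plvap-led cluster, without epithelial-bearing cells, set members against the selectin-negative cells most like them. There 3.42% of eligible genes were higher and 1.78% lower in the control, and 0.923% higher and 0.652% lower in the haplodeficient library. Of 2115 genes eligible in both libraries, 11 passed as higher in both (0.520%) and 5 as lower (0.236%). The higher genes were Nlgn1, Mgp, Samsn1, Vcam1, Unc5c, Icam1, Lepr, Fosb, Zfp36, Flrt2 and Atf3, and the lower genes Kitl, Gpihbp1, Piezo2, Adgre5 and Clic5. Vcam1, Flrt2 and Kitl were also past the rule over all members. Plvap itself was even inside the cluster, at 2470 CPM against 2062 CPM and 2453 CPM against 2291 CPM. Nr2f2 stood at 502 CPM against 313 CPM and 370 CPM against 220 CPM and did not pass (log2 ratios 0.67 and 0.74). Igf1 was not among the 11 higher genes either.

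Vcam1 and Icam1 were the leukocyte adhesion genes among the 11. Vcam1 was at 2203 CPM (1949 to 2481) against 348 CPM (271 to 439) in the control and at 942 CPM (852 to 1039) against 284 CPM (248 to 325) in the haplodeficient library, log2 ratios of 2.65 and 1.71. Thinned to 1000 UMIs, 54.2% of control and 36.5% of haplodeficient members of the cluster kept a Vcam1 UMI, against 17.7% and 20.7% of selectin-negative cells. Unthinned, the shares were 80% and 65.3% against 37.9% and 33.5%. Icam1 was at 672 CPM against 253 CPM and at 600 CPM against 226 CPM, a log2 ratio of 1.39 in both libraries. Its thinned shares were 50% and 35.1% against 16.1% and 17.6%. The intervals of the thinned shares overlapped only for Vcam1 in the haplodeficient library (25.6% to 48.5% against 15.2% to 27.1%).

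Nlgn1, a synaptic adhesion gene, was at 859 CPM (703 to 1038) against 134 CPM in the control and 161 CPM (125 to 205) against 36.1 CPM in the haplodeficient library. Unc5c, a netrin receptor gene, was at 267 CPM against 59.6 CPM and 80.7 CPM against 25.4 CPM. It was found in 40% of control and 18.7% of haplodeficient members, against 9.09% and 7.5% of selectin-negative cells. Its thinned shares were 8.33% and 6.76% against 6.45% and 3.63%, with overlapping intervals. Flrt2, a membrane ligand of Unc5 receptors, was at 389 CPM against 84.5 CPM and 154 CPM against 69.5 CPM. Mgp, which encodes an inhibitor of calcification, was at 632 CPM against 74.5 CPM in the control, but 88.5% of those UMIs came from a single cell. In the haplodeficient library Mgp was at 119 CPM against 28.1 CPM, and 36.0% came from a single cell. Thinned shares of Mgp were 8.33% and 12.2% against 4.84% and 3.11%, with overlapping intervals. For Nlgn1 and Flrt2 the thinned intervals overlapped in the control library only.

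Samsn1, an adaptor gene known from haematopoietic cells, was at 283 CPM against 49.7 CPM and 154 CPM against 40.1 CPM. It was found in 32% of the members of each library, against 12.1% and 12% of selectin-negative cells. Thinned shares of Samsn1 were 12.5% and 10.8% against 9.68% and 2.59%, with overlapping intervals. Leukocyte markers in members are given above, and their part in the values of this cluster was not tested. Lepr, the leptin receptor gene, was at 381 CPM against 94.4 CPM and 123 CPM against 53.4 CPM. Its thinned shares were 25% and 10.8% in members and 11.3% and 4.66% in selectin-negative cells, with overlapping intervals.

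The other 3 of the 11 were immediate early genes, which also respond to tissue dissociation. Fosb, of the AP-1 family, was at 1142 CPM against 388 CPM and 788 CPM against 359 CPM. Atf3, a stress-induced factor gene, was at 1004 CPM against 482 CPM and 959 CPM against 337 CPM. Zfp36, whose product destabilises cytokine messenger RNAs, was at 1085 CPM against 283 CPM and 638 CPM against 293 CPM. The whole list of 15 such genes had a median log2 ratio of 0.66 (control) and 0.67 (haplodeficient), against -0.01 over all eligible genes in each. Above 0 were 15 (control) and 14 (haplodeficient) of them. Over all members the same list had a median of -0.01 in the control, where no gene of it passed, and 0.62 in the haplodeficient library. Without epithelial-bearing cells the medians were -0.06 and 0.54.

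The 5 genes lower in members of the cluster in both libraries were Kitl, Gpihbp1, Clic5, Piezo2 and Adgre5. Kitl, the stem cell factor gene, was at 40.5 CPM (13.2 to 94.5) against 432 CPM in the control and at 104 CPM (75.9 to 140) against 426 CPM in the haplodeficient library, log2 ratios of -3.26 and -1.98. Gpihbp1, which anchors lipoprotein lipase on capillary endothelium, was at 219 CPM against 596 CPM and at 121 CPM against 446 CPM, and 74.1% of the control members' UMIs came from a single cell. Clic5, a chloride intracellular channel gene, was at 40.5 CPM against 224 CPM and at 126 CPM against 263 CPM. Piezo2, a mechanosensitive channel gene, and Adgre5, an adhesion receptor gene, had log2 ratios between -1.81 and -1.12. Thinned shares of Piezo2 were 8.33% and 5.41% in members and 8.06% and 6.74% in selectin-negative cells. The intervals of the thinned shares overlapped in both libraries for Piezo2, Clic5 and Adgre5. For Kitl they overlapped in the control library, at 4.17% (0.105% to 21.1%) in members against 16.1% (8.02% to 27.7%). Kitl, Clic5, Piezo2 and Adgre5 had 5 UMIs each in the control members, so their control levels rest on few molecules. Kitl was the gene with the lowest summed ratio of the 5 in both libraries.

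**Figure D4:**
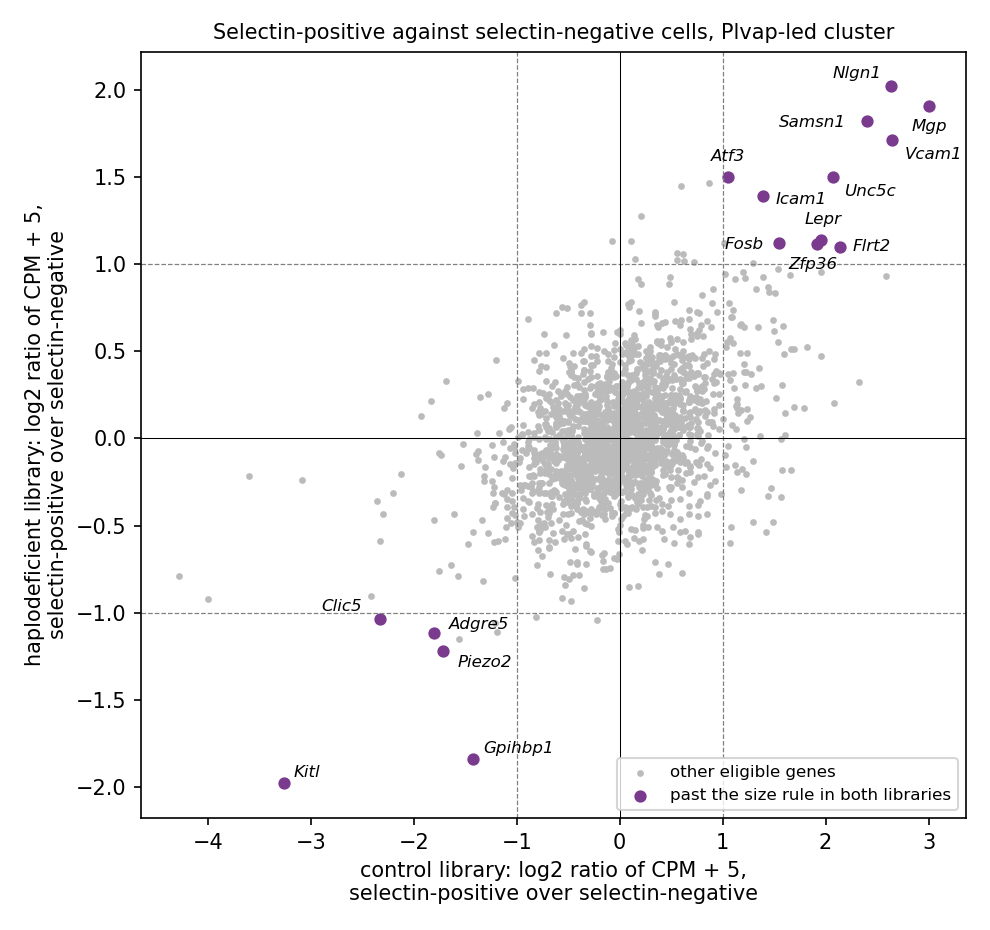
Each point is a gene eligible in both libraries within the Plvap-led cluster (2115 genes), with the log2 ratio of selectin-positive over selectin-negative cells (CPM + 5) in the control library on the horizontal and in the haplodeficient library on the vertical axis. Dashed lines mark ratios of -1 and 1. Purple points passed the size rule in both libraries, 11 as higher, with Vcam1 at 2.65 and 1.71, and 5 as lower, with Kitl at -3.26 and -1.98.

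Gene lists were read inside the Plvap-led cluster by their counts and medians, beside the medians of -0.01 over all eligible genes. Of 20 NF-kappaB targets and feedback genes, 8 were eligible in the control (median 0.77, 6 above 0) and 13 in the haplodeficient library (median 0.40, 11 above 0). Icam1 and Vcam1 passed in both, and Irf1 in the control (883 CPM in members, log2 ratio 1.35). Nfkbia, the feedback inhibitor gene, did not pass (0.74 and 0.30). The adhesion list of 19 genes had medians of -0.20 and -0.03 over 11 and 12 eligible genes, so Vcam1 and Icam1 stood apart from other adhesion genes such as Icam2 (-0.63 and -0.60) and Cd34 (-0.20 and -0.06). Jam3 passed in the control (1.23) and Chst2, a sulfotransferase gene of selectin-ligand synthesis, in the haplodeficient library (1.18).

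Of the 12 Weibel-Palade genes, 3 (control) and 4 (haplodeficient) were eligible, and none passed. Their medians were -0.71 with 1 gene above 0 (control) and 0.21 with 4 above 0 (haplodeficient). Igfbp7, a secreted protein gene on this list, was at 1571 CPM and 788 CPM in members with log2 ratios of 0.82 and 0.35. Of the 10 venous genes 6 were eligible in each library, with medians of 0.38 and 0.39. Lrg1 (1.60) and Tmem252 (1.58) passed in the control, at 0.48 and 0.31 in the haplodeficient library, and no venous gene passed in both. Chemokine and cytokine genes had a median of -0.59 over 4 eligible genes, 1 above 0, in the control and of 0.29 over 5 eligible genes, 5 above 0, in the haplodeficient library. Cxcl2, a neutrophil chemokine gene, passed as lower in the control, with no UMI in members (up to 29.9 CPM) against 363 CPM. Cxcl10 passed as higher in the haplodeficient library (1.46) and not in the control (0.87). Ccl2 passed there as well, at 168 CPM against 8.01 CPM, with 95.8% of its member UMIs in 1 cell. Il33, an alarmin gene, had ratios of 0.07 and 0.29 and did not pass.

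The fenestrated and capillary list had negative medians in both libraries, -0.56 and -0.59, with 2 of 11 eligible genes above 0 in each. Gpihbp1 passed as lower in both, and Esm1 (-4.28), Igfbp3 (-3.99) and Igfbp5 (-2.33) in the control alone, where the haplodeficient ratios were -0.79, -0.92 and -0.59. The difference between the libraries in these ratios was not tested. The interferon-stimulated list had medians of 0.29 (17 eligible) and -0.10 (25 eligible), and Ifit1, Ifit3, Gbp2 and Iigp1 passed in the control alone. Genes of antigen presentation were near or below the background, with medians of -0.33 and -0.20 for MHC class I and -0.26 and -0.16 for MHC class II. Psmb8 (-1.10) and Psmb9 (-1.34) passed as lower in the control. The arterial list had 3 eligible genes in each library, with Sox17 at -1.19 and -1.11, past the rule in the haplodeficient library. Junction and barrier genes (medians 0.08 and -0.03) and oxygen-sensing genes (0.09 and -0.11) held no gene past the rule in either library. Of the cell cycle genes Mki67 and Top2a had no UMI in the members of the cluster, which allows up to 29.9 CPM and 8.75 CPM.

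**Figure D5:**
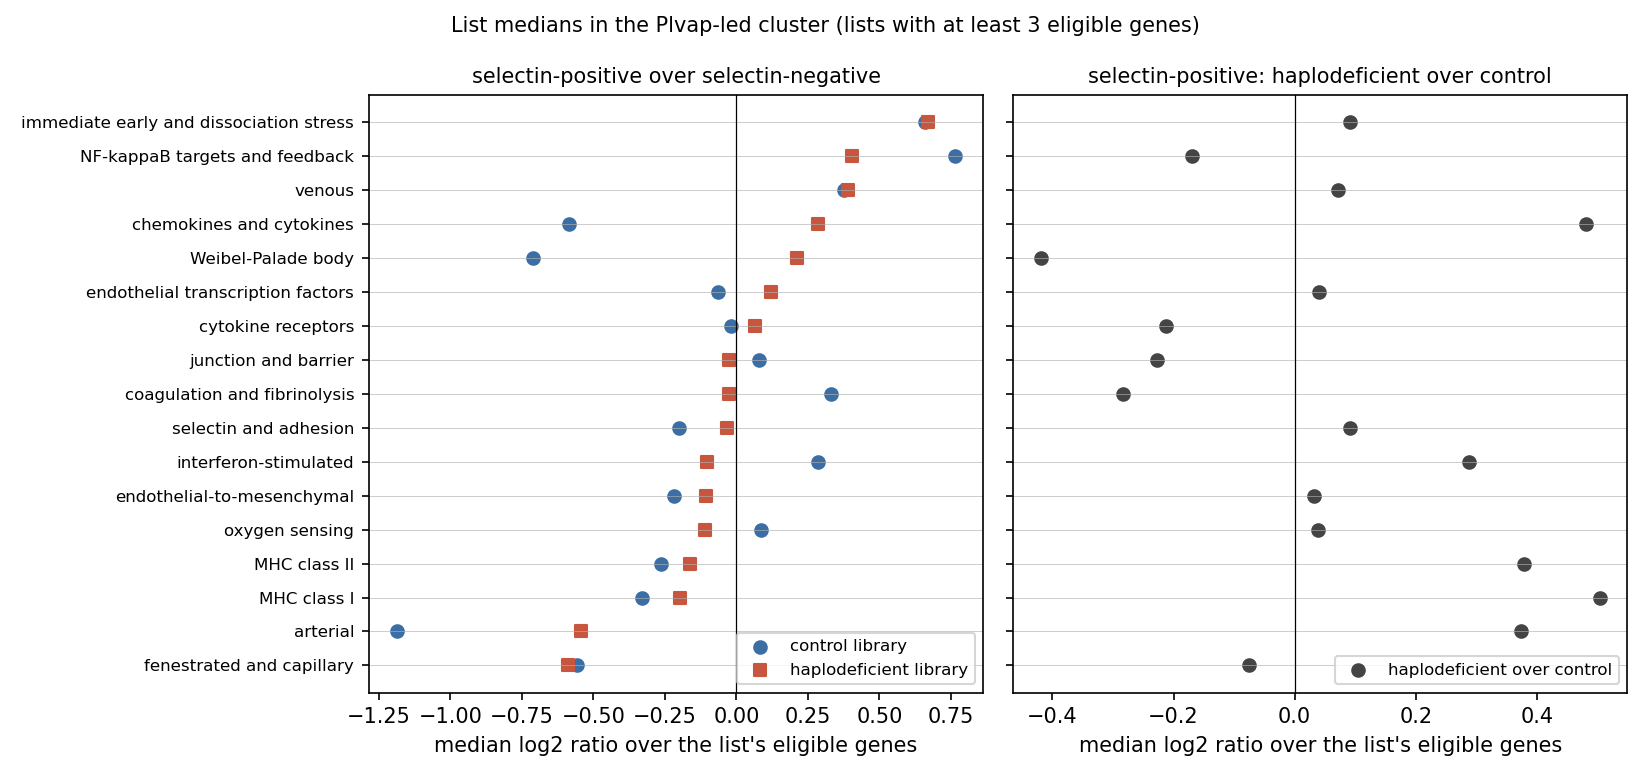
Median log2 ratios of gene lists within the Plvap-led cluster, for lists with at least 3 eligible genes in each comparison. Left, selectin-positive over selectin-negative cells in the control (blue circles) and haplodeficient (red squares) library. Right, haplodeficient over control selectin-positive cells. Immediate early genes lie at 0.66 and 0.67 on the left, and capillary genes at -0.56 and -0.59.

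Members differed among themselves by which selectin they carried, a split made on the genes of the rule. In the haplodeficient library, without epithelial-bearing cells, the 21 members with both selectins had Vcam1 at 2202 CPM (1975 to 2448), against 318 CPM (240 to 413) in the 36 with Selp only and 321 CPM (227 to 440) in the 23 with Sele only. Among the members with both selectins, single cells held 58, 50, 40 and 32 Vcam1 UMIs, and others held 0. Cxcl10 was highest with both selectins as well, then with Selp only and Sele only, at 957 CPM (809 to 1123), 239 CPM (172 to 323) and 160 CPM (96.6 to 251). Icam1 was at 841 CPM, 483 CPM and 346 CPM. Plvap varied less, at 2119 CPM, 2632 CPM and 2262 CPM. The members with both selectins had a median of 6128 UMIs per cell, against 3795 and 4258 in the other classes, and depth moves the chance to find both.

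In the control library the classes held 8, 12 and 5 such cells. Vcam1 was at 2763 CPM (2326 to 3259) with both selectins, 1910 CPM (1545 to 2335) with Selp only and 1586 CPM (1111 to 2196) with Sele only. Icam1 had another order there, at 274 CPM with both, 1226 CPM with Selp only and 353 CPM with Sele only. The 37 haplodeficient cells with 1 selectin UMI had Vcam1 at 259 CPM (190 to 344), near the 192 CPM (171 to 216) of selectin-negative cells, and the 43 with 2 or more at 1452 CPM (1311 to 1603). The 7 control cells with 1 selectin UMI had Vcam1 at 2123 CPM (1524 to 2881), and the 18 with 2 or more at 2218 CPM (1941 to 2523). Of the 41 Vcam1 UMIs in those 7 cells 37 lay in 2 cells, and no other held more than 2, so their level says little of the cells at the threshold of the rule.

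Single cells spread widely around these sums. Over all members Vcam1 ran from 0 to 8415 CPM per cell in the control (median 444 CPM, found in 24 of 32 cells) and from 0 to 14733 CPM in the haplodeficient library (median 260 CPM, 65 of 98 cells). Plvap was found in 32 of 32 and 96 of 98 members, with medians of 2004 CPM and 2120 CPM per cell. Nr2f2 was found in 25 and 74 members (medians 310 CPM and 245 CPM).

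The members of the haplodeficient library were last compared with those of the control library. Over all members 142 of 3939 eligible genes passed as higher (3.60%) and 195 as lower (4.95%). Several of the largest ratios were of tubule genes, some of them with most of their UMIs in 1 cell. Fxyd4, a collecting duct gene, was at 172 CPM against 2.69 CPM, with 78.7% of the haplodeficient UMIs in 1 cell. Gdf15, a stress-induced cytokine gene, was at 559 CPM against 86.1 CPM, with 66.0% in 1 cell. Kap, a proximal tubule gene, was at 3.95 CPM against 2323 CPM. It was found in 24 control members, with 89.2% of the control UMIs in 1 cell. Slc34a1, a phosphate transporter gene of the proximal tubule, was at 1.98 CPM against 595 CPM and was found in 11 control members. The other genes of this rule were Basp1, Cxcl2, Krt18, Plet1, Cdh6 and Npnt as higher and Acsm2, Miox, Gpx3, Cltrn, Nrxn3 and Gatm as lower. Without epithelial-bearing cells 56 of 3477 genes were higher (1.61%) and 93 lower (2.67%). Proximal tubule markers summed to 9122 CPM in control and 726 CPM in haplodeficient members.

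Within the Plvap-led cluster, without epithelial-bearing cells, 46 of 3386 genes were higher (1.36%) and 87 lower (2.57%) in the 75 haplodeficient than in the 25 control members. Of these, 22 and 22 were also past the rule over all members. Igfbp5, a gene of a growth-factor-binding protein, was at 1008 CPM (915 to 1109) against 227 CPM (151 to 328), found in 61.3% against 20% of cells, and 50% of the control UMIs came from a single cell. Igfbp3 of the same family was at 195 CPM (155 to 242) against 32.4 CPM (8.83 to 83.0). Psenen, a gamma-secretase subunit gene, was at 206 CPM against 40.5 CPM, and Tex261, Nudt4, Pak1ip1 and Tnpo3 rested on 2 control UMIs each. Ccl2, a monocyte chemokine gene, had no UMI in control members (up to 29.9 CPM) and was at 168 CPM in haplodeficient members, with 95.8% of its UMIs in 1 cell.

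Vcam1 was lower in haplodeficient members of the cluster, at 942 CPM (852 to 1039) against 2203 CPM (1949 to 2481), a log2 ratio of -1.22. Over all members the same ratio was -0.40 and did not pass. The members of the libraries differed in selectin UMIs. Without epithelial-bearing cells 7 control and 37 haplodeficient members carried 1 selectin UMI, and 18 and 43 carried 2 or more. Vcam1 levels of these classes are given above, and the part of the classes in the ratio was not tested. Icam1 did not differ past the rule (600 CPM against 672 CPM, -0.16), and Nr2f2 neither (370 CPM against 502 CPM, -0.43). Nlgn1 was at 161 CPM against 859 CPM, Cryab, a small heat shock protein gene, at 68.8 CPM against 510 CPM (-2.80), and Mgp at 119 CPM against 632 CPM with the single control cell given above. Over all members the call for Cryab turned, with 677 CPM in haplodeficient against 296 CPM in control members, a log2 ratio of 1.18 that passed as higher. Immp2l, Thsd4 and Pcdh7 were lower with log2 ratios of -2.24, -2.12 and -2.04. Kap and Gpx3 were lower as well, at 7.12 CPM against 227 CPM and 21.4 CPM against 251 CPM, and the free RNA expected in control members amounted to 168% and 84.1% of their UMIs there.

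By list, MHC class I genes had a median of 0.50 over 11 eligible genes, 9 of them above 0, against 0.04 over all eligible genes. The immunoproteasome genes Psmb8 (584 CPM against 259 CPM, log2 ratio 1.16) and Psmb9 (268 CPM against 89.1 CPM, 1.54) passed. The interferon-stimulated list had a median of 0.29 with 15 of 25 above 0. Irf7 (1.29) and Bst2 (1.20) passed as higher and Gbp2 (-1.10) as lower. Vim, the vimentin gene, was higher (1.34) and Fabp5, a fatty-acid-binding protein gene, lower (-1.12). NF-kappaB targets had a median of -0.17 over 12 eligible genes, 4 above 0, and Vcam1 was the gene among them that passed. With 1 library per group none of these differences has a replicate check.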

How the data were processed

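The labels give 10x Chromium 3′ libraries of injured kidney, 1 per group, both in batch 1. The authors deposited raw UMI counts per gene and barcode, whose file headers name Cell Ranger version 4, on mm10 per the submitters' processing notes. Gene positions came from GENCODE M21, which matched 99.6% of gene identifiers. The members and gene lists were chosen with earlier results of these data known, and cell-type names rest on gene counts, not on an annotation by the authors. Counts were summed over cells and scaled to CPM. With 1 library per group no test was run, and genes were called by size: exact Poisson 95% intervals that did not overlap and a log2 ratio, after adding a pseudocount of 5 CPM, of 1 or more in size, among genes that reached a mean of 50 CPM and 30 UMIs. Mitochondrial genes, genes of the rule and duplicated symbols got no call.

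Named genes were 9 fixed ones, the 12 highest and 8 lowest in both libraries against selectin-negative cells, the 8 highest and 8 lowest between libraries, and examples from each list. Genes of the Plvap-led cluster and the other genes named there were chosen after their values were seen. Clusters used 2000 variable genes without the genes of the rule, 20 components, 15 neighbours and resolution 0.5 (scanpy 1.11.5, leidenalg 0.10.2). Scrublet assumed 0.8% doublets per 1000 cells. Free RNA was estimated from barcodes of 1 to 100 UMIs. Shares carry exact binomial intervals, and thinning drew 1000 UMIs per cell. The computation of ratios and calls was tested on simulated data. Python 3.11.15, numpy 2.4.6, pandas 2.3.3, scipy 1.17.1 and matplotlib 3.10.9 were used. Alternatives changed gates, depth, doublets, pseudocount, scaling, free RNA and the comparison cells. Cxcl11 and Ccl21a were not analysed here.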

Additional observations from a re-analysis of the deposited data

Results flagged for a closer look

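For 2 genes the ratio of members to selectin-negative cells had opposite signs in the libraries, over all members, and both values passed the size rule. Gdf15, a stress-induced cytokine gene, had a log2 ratio of -1.14 (control) and 1.32 (haplodeficient), with 75% and 66.0% of its member UMIs in a single cell. Nrxn3, a synaptic adhesion gene, had 2.46 (control) and -1.50 (haplodeficient), with 95.5% and 70.4% in a single cell. The difference between the libraries was not tested for either gene.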

How the results depend on the processing

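No paired analysis was possible because each group is 1 library and the results come from no test. Requiring 2 selectin UMIs gave a haplodeficient share of 6.30% and a difference of 1.71 points. Genes higher in members of both libraries (33) numbered 18 with at least 5 endothelial UMIs, 11 in the Plvap-led cluster and 61 with a minimum of 20 CPM and 10 UMIs. Genes lower in both (14) numbered 22 without Scrublet doublets, 29 against all other endothelial cells, 34 after thinning to 2000 UMIs, 52 without cells that held a platelet, leukocyte or mural UMI, 35 without epithelial-bearing cells, 5 in the cluster and 41 with the lower minimum. Between libraries, higher genes (142) numbered 11 thinned, 56 without epithelial-bearing cells, 46 in the cluster and 229 with the lower minimum, and lower genes (195) 31, 93, 87 and 348, and 110 without cells with other markers.

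List medians moved as follows. Haplodeficient over control, NF-kappaB targets (0.19) were at -0.36 thinned, -0.25 without epithelial-bearing cells and -0.17 in the cluster. Interferon genes (0.67) were at 0.21, 0.31 and 0.29, and immediate early genes (0.72) at 0.16, 0.10 and 0.092. Members over selectin-negative cells, interferon genes in the control (0.89) were at 0.50 thinned, 0.38 against all other endothelial cells and 0.29 in the cluster, and in the haplodeficient library (0.41) at 0.24 with at least 5 endothelial UMIs and -0.10 in the cluster. Immediate early genes in the control (-0.01) were at 0.66 in the cluster, and in the haplodeficient library (0.62) at 0.31 thinned, 0.38 against all other endothelial cells and 0.79 without cells with other markers. MHC class I in the control (0.44) was at -0.089 against all other endothelial cells, -0.079 without epithelial-bearing cells and -0.33 in the cluster, and in the haplodeficient library (0.25) at -0.20 in the cluster. In the haplodeficient library coagulation genes (0.39) were at -0.026 in the cluster and endothelial transcription factors (0.29) at -0.00272 against all other endothelial cells.

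Single genes changed sign as follows. In the cluster, members over selectin-negative cells, the control had Aqp1 at 0.97, Gatm at -0.91 and S100g at 1.19, and the haplodeficient library S100g at 0.47, Slc8a1 at 0.74 and Nrxn3 at 1.94. Without epithelial-bearing cells the control had Gatm at -1.84, and the haplodeficient library Gdf15 at -0.41, Gpx3 at 0.72, Nrxn3 at 1.69 and S100g at 0.82. Thinned, the control had Gatm at -0.72 and Nrxn3 at -0.052, and the haplodeficient library Kap at 0.20 and Nrxn3 at 1.28. Without cells with other markers the control had Cdh6 at 1.29 and Nrxn3 at -2.78, and the haplodeficient library Gdf15 at -3.21. Mgp in the control was at -0.66 against all other endothelial cells, and Gatm at -0.012 with a mitochondrial limit of 25%. Haplodeficient over control, Cryab was at -1.63 thinned, -1.23 without cells with other markers, -2.07 without epithelial-bearing cells and -2.80 in the cluster, and Phactr1 at 0.75, 0.035 and 0.031 in the latter 3. Nrxn3 was at 0.36 thinned, and without cells with other markers Cdh6 was at -0.64, Krt18 at -0.33 and Plet1 at -0.79. The cause of these changes was not tested. The epithelial and cluster settings were chosen after seeing the data. Counts of the 32 control members limit the precision, and 20.4% of their UMIs lay in a single cell.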
